A study of Danio rerio with 30 samples.

Results

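The 10 genes described here make and break down retinoids from dietary carotenoids: bco1, bco1l and bco2b, which cleave carotenoids, rdh1, rdh10b and rdh12l, which interconvert retinol and retinal, rbp2b, a cellular retinol-binding protein, aldh1a2, which makes retinoic acid, and cyp26a1 and cyp26b1, which degrade it. They were taken by name, as every array spot whose annotated symbol was that of a member or an older synonym, which gave 11 spots for 10 genes among 23232 spots and 9262 named genes. Expression was measured along the intestine of the adult zebrafish on spotted arrays of 65-base oligonucleotides. The intestine of wild-type male fish of about 1 year was cut into 7 roughly equal segments, S1 to S7, and the same segment of 10 fish was pooled as 1 biological replicate. The rostral intestinal bulb comprised S1 and S2, the mid-intestine S3 and S4, and the caudal intestine the last 3 segments. On each array the segment RNA carried Cy5, and RNA of whole wild-type fish, mixed from males and females at 9:1, carried Cy3. There were 5 arrays each of S1, S2, S3 and S4, 4 of S5, 3 of S6 and 3 of S7, 30 arrays in all. The fish were untreated, the wild-type strain is not given in the sources used here, and pooling leaves no value for a single fish.

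Vertebrates cannot make vitamin A and take it up as retinyl esters or as carotenoids such as beta-carotene. Bco1 cuts beta-carotene in the centre and yields retinal, whereas enzymes of the Bco2 type cut carotenoids off centre. In mammals most of this conversion takes place in enterocytes of the small intestine, which take carotenoids up through the scavenger receptor Scarb1 and reduce retinal to retinol for export as esters. Retinal that is oxidized by Aldh1a enzymes becomes retinoic acid, the ligand of nuclear receptors, and Cyp26 enzymes clear it.

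The values below are log2 Cy5/Cy3 ratios per spot after background correction and normalization within each array, so 0 means as much as in whole fish and each step of 1 means a 2-fold difference. As no dye was swapped, the preference of an oligonucleotide for a dye stays in every ratio against whole fish but not in a difference between segments. In bulk tissue, fewer cells of a type cannot be told apart from less RNA per cell. From 37.2% to 69.3% of spots were above the local background by 2 SD in Cy5 on the S1 to S5 arrays, against 14.2% to 89.9% on the S6 and S7 arrays. The Cy3 signals came from the same kind of whole-fish RNA on every array. Over the 19479 spots tested in S1 to S5, their mean correlation was 0.817 among S1 to S5 arrays and 0.633 among S6 and S7 arrays. It was only 0.115 between the 2 sets. S6 and S7 were kept apart by the design of the tests. Whether the 2 sets share a spot layout and reference was not tested, and the gene names of all S6 and S7 values below carry that limit. The deposited spot area also split the arrays into those with large and with small spots. Large spots were found on 3 S1 arrays, 1 S2 array, 4 S3 arrays and every S4 and S5 array, and on 0 arrays of S6 and S7. Enterocyte markers were high in S1 to S5, with an average ratio of the 9 spots (8 of the 10 listed genes) between 2.17 and 3.09 on the S1 to S4 arrays and between 1.06 and 1.98 in S5. They lay near that of whole fish in S6 (-0.13 to 0.08) and S7 (-0.65 to -0.09).

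The 11 spots were deposited partly under older names. The bco1 spot is listed as bcmo1, the bco1l spot as zgc:63614, the rdh10b spot as rdh10 and 1 bco2b spot as wu:fk75b02. A second spot, listed as bcdo2, carries a synonym that bco2b shares with bco2l, so its gene is uncertain and it is called the bcdo2 spot. In the GRCz12tu annotation bco1 and bco1l are neighbours on chromosome 7. Of the 11 spots, 9 had enough signal to be tested in S1 to S5. The rbp2b spot was above background in Cy5 on 2 of 24 arrays and the bcdo2 spot on 3 of 24, and neither was tested there.

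Against whole fish, the 3 carotenoid-cleaving enzymes, the retinol dehydrogenases rdh1 and rdh12l and the retinoic acid-making aldh1a2 were higher in S1 to S5, whereas rdh10b and both cyp26 genes were lower. Averaged over S1 to S5, the log2 ratio was 3.48 (SE 0.17, 11.2-fold) for bco1l, 2.40 (SE 0.13, 5.3-fold) for bco1 and 0.66 (SE 0.04, 1.58-fold) for bco2b. Among the dehydrogenases it was 2.06 (SE 0.08, 4.17-fold) for rdh1 and 1.91 (SE 0.09, 3.76-fold) for rdh12l, but -3.00 (SE 0.09, 8-fold lower) for rdh10b. The ratio was 1.08 (SE 0.10) for aldh1a2, -0.55 (SE 0.10) for cyp26a1 and -0.997 (SE 0.10) for cyp26b1. All 9 tested spots passed limma's test at an adjusted p below 0.05, 6 of them higher and 3 lower. With 86.3% of all 19479 tested spots called in this comparison (43.9% higher and 42.4% lower), a call says little about these genes in particular, and the sizes are what the comparison gives. Each of the 9 calls was kept when any single array of the 24 was left out.

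**Figure D1:**
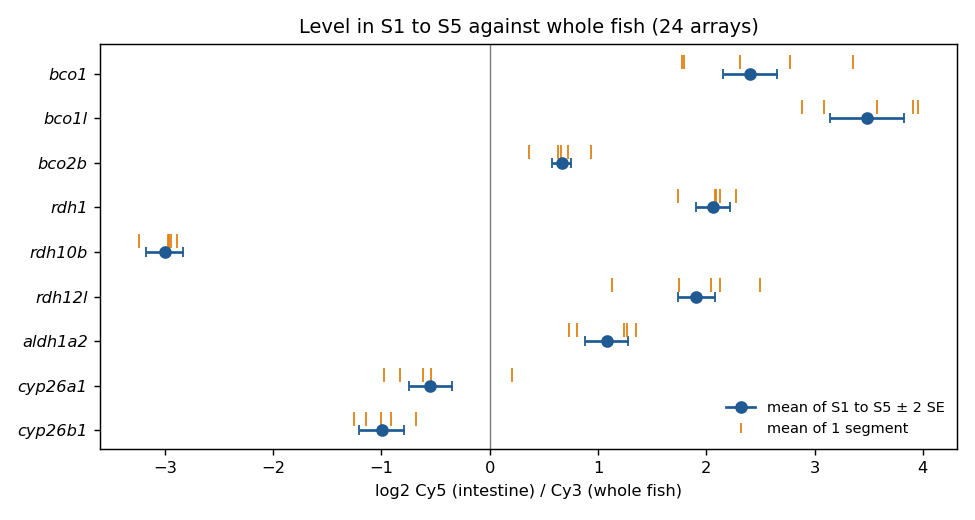
Level of the 9 tested spots in S1 to S5 against whole fish, as log2 Cy5/Cy3 on the horizontal axis. Dots and bars are the mean of S1 to S5 ± 2 SE over 24 arrays, and ticks are the means of single segments. The 6 genes right of 0 are the 3 carotenoid-cleaving ones, rdh1, rdh12l and aldh1a2, with bco1l at 3.48 and bco1 at 2.40, and rdh10b lies at -3.00 with all 5 segment means close together.

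Some of these ratios are rough averages because a dye did not rise above its background by 2 SD. For aldh1a2 the Cy3 signal was above background by 2 SD on 0 of 24 arrays of S1 to S5, whereas Cy5 was above on 21. Its median Cy3 signal was 916.5, over a median background of 201.5 that was uneven (median SD 2524.5). Its average ratio in S1 to S5 was about 2.1-fold above whole fish, with single arrays as low as 0.30 in log2. With Cy3 within 2 SD of so uneven a background, this is no lower bound. For bco1l the Cy3 signal was above background on 6 of 24 arrays (0, 1, 1, 2 and 2 from S1 to S5), so its 11.2-fold rests on a dim whole-fish signal and is no exact level. In S1 Cy3 was above background on 0 of 5 arrays, and the average of 8.51-fold higher than in whole fish is likewise rough. In the other direction, cyp26b1 was not above background in Cy5 on any array of S1, S2 or S3. Its rough ratios there were, on average, 1.97-fold, 1.88-fold and 2.11-fold lower than in whole fish. For these values the dye not above background was set at the higher of its own signal and the lowest signal well above background on the array. For bco1l in S1 this left the average at 8.51-fold, so these values are not bounds. They are averages and make no allowance for the spread between arrays. Single arrays fell short of them, such as cyp26b1 in replicate 1 of S2 (-0.26) and bco1l in replicate 3 of S1 (2.66).

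**Figure D2:**
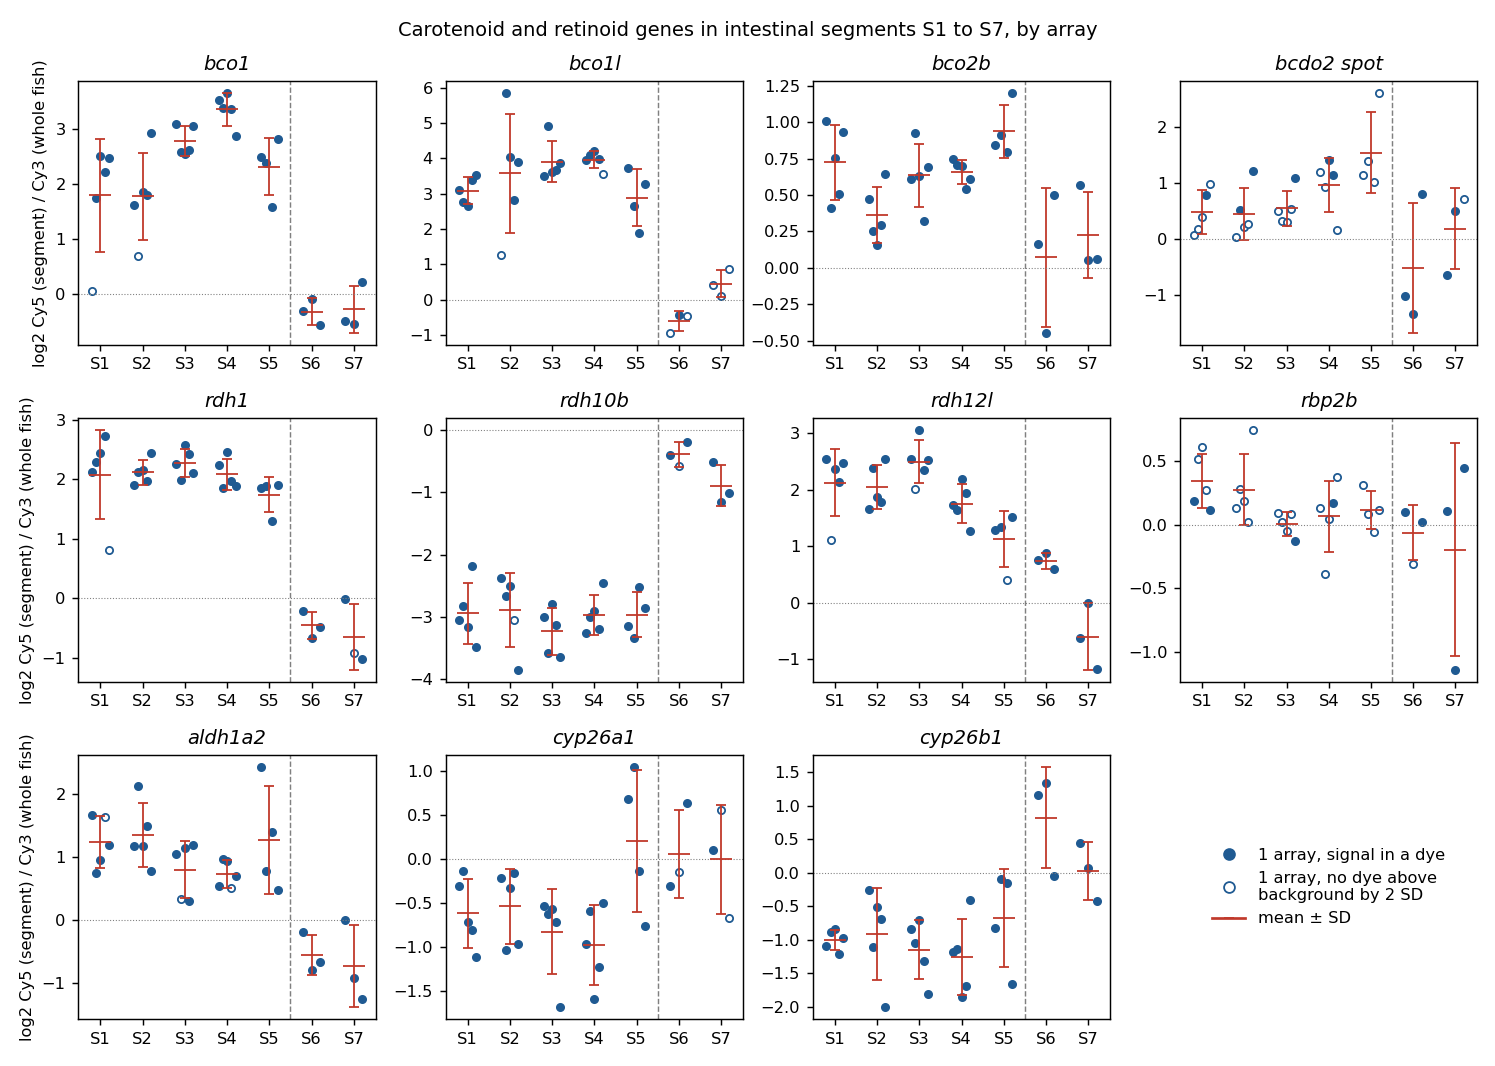
Log2 Cy5/Cy3 of the 11 spots on each array, by segment. Filled points are arrays on which at least 1 dye was above the local background by 2 SD, open points arrays on which neither was, and bars give the mean ± SD of a segment. The dashed line sets S6 and S7 apart. The bco1 points are highest in S4 (2.87 to 3.65), and rdh12l points are lowest within S1 to S5 in S5 (0.39 to 1.51).

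Among the carotenoid-cleaving enzymes, bco1 differed along S1 to S5 and was highest in the mid-intestine. Its log2 ratios in replicates 1 to 5 were 0.05, 1.74, 2.51, 2.21 and 2.47 in S1 and 1.62, 0.70, 1.85, 1.80 and 2.92 in S2. In S3 they were 3.09, 2.58, 2.54, 2.62 and 3.06, and in S4 3.52, 3.38, 3.65, 3.36 and 2.87. In S5 (replicates 1, 2, 3 and 5) they were 2.48, 2.39, 1.59 and 2.81. All S3 and S4 arrays lay at 2.54 or above, whereas 9 of the S1 and S2 arrays lay below that and only replicate 5 of S2 reached into the mid-intestinal range. The lowest value of each bulb segment, in replicate 1 of S1 and in replicate 2 of S2, came from spots that were above background in neither dye.

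bco1 averaged 3.07 in S3-S4 and 1.79 in S1-S2, a difference of 1.28 (SE 0.27, 2.42-fold, adjusted p = 0.0118 by limma). It was the only one of the 9 tested spots called in this comparison, in which 1.97% of all tested spots were called, 1.05% higher and 0.919% lower. With spots above background in neither dye set missing, the difference was 0.925 (adjusted p = 0.00657), and with spot area as a block it was 1.46 (adjusted p = 0.0252). The settings by spot area keep replicate 1 of S1, a large-spot array whose bco1 spot was above background in neither dye. The main difference stayed called without any single array, between 1.06 and 1.42. With median centring in place of loess the adjusted p was 0.0537, with scaling between arrays 0.315, with the authors' own log2 values 0.0741 and with the arrays of large spots alone 0.0766, where the difference was 1.56. In S5 the average was 2.32, against 3.07 in S3-S4 (difference -0.75, SE 0.36, adjusted p = 0.327).

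The larger change in mean lay in the Cy5 channel. The normalized log2 intensity of bco1 in Cy5 from S1 to S5 was 11.3 ± 1.92, 11.3 ± 1.43, 12.6 ± 0.39, 13.3 ± 0.26 and 12.3 ± 0.38 (SD, n = 5 arrays a segment and 4 in S5), whereas the Cy3 means of the whole-fish RNA stayed between 9.5 and 9.98. The Cy3 signal was the more variable in S1 and S2, with SDs of 0.94 and 0.74. The S1 and S2 means and SDs of both dyes hold the same 2 dim spots. The Cy5 rise from S1 and S2 therefore rests in part on spots without signal.

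The averages of the enterocyte markers overlapped between these segments, at 2.20 to 3.09 on the S3 and S4 arrays and 2.17 to 2.79 on the S1 and S2 arrays. Hepatocyte markers (13 spots of 9 of the 10 listed genes, 1 of the spots never above background in Cy5 in S1 to S5) lay between -1.89 and -0.55 in S3 and S4 and between -1.34 and 0.51 in S1 and S2. Exocrine pancreas markers (12 spots of 10 of 12 genes, each above background in Cy5 on some array) were between 0.18 and 0.75 in S3 and between 1.14 and 1.87 in S4, against -0.03 to 0.48 in S1 and S2. The part of liver and pancreas tissue in the bco1 difference was not tested.

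The neighbouring gene bco1l, a paralogue of bco1, gave ratios from 1.27 to 5.85 in S1 to S5. In replicates 1 to 5 they were 3.10, 2.77, 2.66, 3.38 and 3.54 in S1 and 1.27, 5.85, 4.03, 2.83 and 3.90 in S2. In S3 they were 3.49, 4.92, 3.62, 3.66 and 3.86, in S4 3.96, 4.10, 4.195, 3.98 and 3.56, and in replicates 1, 2, 3 and 5 of S5 3.72, 2.66, 1.87 and 3.29. Every array lay above whole fish, S4 was the tightest segment and S2 the widest. The local background exceeded the spot in both dyes in replicate 1 of S2. In Cy3 it also did so in replicates 2 and 3 of S2 (5.85 and 4.03) and in replicate 5 of S4 (3.56), so these ratios are no exact levels. S3-S4 averaged 3.94 and S1-S2 3.33 (difference 0.60, SE 0.37, adjusted p = 0.54), and S5 averaged 2.88, against 3.94 in S3-S4 (difference -1.05, SE 0.49, adjusted p = 0.313). Neither was called, and neither was with the spot area as a block. With the arrays of large spots alone, S3-S4 exceeded S1-S2 by 1.75 and S5 was lower than S3-S4 by 0.923 (difference -0.923). S2 then has 1 array, replicate 1, on which the spot lay below its background in both dyes (1.27). The 1.75 therefore rests in part on a spot without signal. With the area as a block on all 24 arrays the first difference was 1.33 (adjusted p = 0.0644) and the second -0.904 (adjusted p = 0.276). Without background correction S5 was called against S3-S4, at -1.27 (adjusted p = 0.0127).

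bco2b was above whole fish on all 24 arrays of S1 to S5 by a small margin. From S1 to S5 the segment means were 0.72 ± 0.26, 0.36 ± 0.20, 0.64 ± 0.22, 0.66 ± 0.08 and 0.94 ± 0.18 (SD, n = 5 arrays a segment and 4 in S5). The 4 S5 arrays (0.80 to 1.2) overlapped with those of S3-S4 (0.32 to 0.92), and the difference of 0.29 (SE 0.12, adjusted p = 0.242) was not called. The adjusted p of its F test over S1 to S5 was 0.0931, and 0.038 without replicate 5 of S2. The dim bcdo2 spot had ratios between 0.03 and 2.61 in S1 to S5, with its highest mean in S5 (1.54 ± 0.73). With no filter on dim spots it was called in S5 against S1, at 1.06 (adjusted p = 0.0455), although Cy5 was above background on 0 of 4 S5 arrays and 1 of 5 S1 arrays.

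Of the retinol dehydrogenases, rdh12l, which resembles the retinal-reducing RDH12 of mammals, was lower in S5 than in S3-S4 and in S1. Its ratios in replicates 1 to 5 were 2.55, 1.1, 2.36, 2.14 and 2.48 in S1 and 1.66, 2.39, 1.87, 1.78 and 2.54 in S2. In S3 they were 2.55, 2.01, 3.06, 2.35 and 2.52, in S4 1.72, 1.64, 2.19, 1.95 and 1.26, and in replicates 1, 2, 3 and 5 of S5 1.28, 1.33, 0.39 and 1.51. S3 was highest and S5 lowest by segment mean (2.50 ± 0.38, n = 5, and 1.13 ± 0.50, n = 4), and neighbours overlapped: the S5 arrays reached above the lowest S4 array, and replicate 2 of S1, dim in both dyes, lay among those of S5.

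rdh12l averaged 1.13 in S5, against 2.13 in S3-S4 (difference -0.996, SE 0.25, 1.99-fold, adjusted p = 0.0279), and 2.12 in S1 (difference -0.995, SE 0.28, adjusted p = 0.0401). In S5 against S3-S4, 3.06% of all tested spots were called (1.4% lower and 1.67% higher), and in S5 against S1 5.77% (3.36% lower and 2.41% higher). Leaving out replicate 3 of S5, its lowest array and one not above background in either dye, gave -0.75 in both comparisons (adjusted p = 0.149 and 0.154), and leaving out replicate 2 of S5 gave an adjusted p of 0.0594 against S3-S4. The S5 against S3-S4 call was also lost with median centring (-0.826, adjusted p = 0.0765), with scaling between arrays (0.165) and with the authors' log2 values (0.576), and held within the arrays of large spots (-1.06, adjusted p = 0.0329). The S5 against S1 call was lost without any 1 of 7 arrays (replicates 1, 3, 4 and 5 of S1 and 1, 2 and 3 of S5), where the adjusted p ran up to 0.154, with median centring (0.0639), with scaling (0.0904), with the replicate number as a block (0.0558), with all 30 arrays (0.0576), with the spot area as a block (0.0786) and with large spots only (-0.873, adjusted p = 0.177). The average of the enterocyte list moved the same way, at 1.06 to 1.98 in S5. It was 2.20 to 3.09 in S3 and S4 and 2.32 to 2.75 in S1. Between S1 and S5 its spots did not all do so. The mean of apoa4a went from 4.62 to 1.73 and that of slc15a1b from 3.05 to 1.38. Those of a vil1 spot (2.47 and 2.61) and chia.2 (0.989 and 1.03) were not lower in S5 than in S1. The part of this list in the difference was not tested.

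rdh1, another short-chain dehydrogenase of this family, showed no called difference within S1 to S5. Its segment means from S1 to S5 were 2.08 ± 0.75, 2.12 ± 0.21, 2.27 ± 0.24, 2.09 ± 0.26 and 1.74 ± 0.29 (SD), and every array lay above whole fish (0.81 to 2.73). S5 was lower than S3-S4 by 0.44 (difference -0.44, interval of ± 2 SE from -0.90 to 0.02, adjusted p = 0.381). S1 held 1 low array, replicate 5 at 0.81, on which neither dye was above background, and without it S5 was called lower than S1 (-0.66, adjusted p = 0.0328).

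rdh10b, whose mammalian counterpart RDH10 oxidizes retinol on the way to retinoic acid, was the reverse. On all 24 arrays of S1 to S5 its ratio was between -3.85 and -2.18, with a median of -3.03. The segment means ran from -3.24 ± 0.37 in S3 to -2.89 ± 0.60 in S2, and no segment comparison was called: the difference was -0.18 for S3-S4 against S1-S2 (interval -0.56 to 0.19), 0.14 for S5 against S3-S4 (-0.36 to 0.63) and -0.02 for S5 against S1 (-0.58 to 0.54). The Cy3 signal of whole fish was bright, with mean normalized log2 intensities between 12.98 and 13.05 over the segments. The Cy5 signal was above background on 21 of 24 arrays, so the low ratio does not rest on a dim dye. Any preference of the oligonucleotide for a dye stays in it.

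rbp2b belongs to the family whose mammalian member RBP2 binds retinol in enterocytes. Its spot was dim in both dyes in S1 to S5, above background in Cy5 on 2 and in Cy3 on 4 of 24 arrays, and its ratios of -0.39 to 0.74 are therefore no measure of its level. The second rbp2 gene on the arrays, rbp2a, was above background in both dyes on all 24 arrays, but its Cy5 signal was saturated on 22 of them, so its value of 1.00 against whole fish holds a clipped signal and is no exact level.

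aldh1a2, the main retinaldehyde dehydrogenase of the vertebrate embryo, gave a ratio above whole fish on each array of S1 to S5 (0.30 to 2.42, median 1.01). Its Cy3 signal was above background by 2 SD on 0 of these 24 arrays, so the ratios are no exact levels. The segment means were 1.24 ± 0.41, 1.35 ± 0.51, 0.80 ± 0.45, 0.73 ± 0.22 and 1.27 ± 0.86 from S1 to S5. S3-S4 averaged 0.77 and S1-S2 1.30, a difference of -0.53 (SE 0.21) that was not called (adjusted p = 0.273), and 5 of the 10 S3-S4 arrays lay below all S1-S2 arrays. S5 held both the highest array of all (replicate 1, 2.42) and 1 of the lowest (replicate 5, 0.49).

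The 2 retinoic acid hydroxylases were at the dim end of the range. cyp26a1 had ratios in S1 of -0.31, -0.14, -0.71, -0.80 and -1.11 and in S2 of -0.22, -1.03, -0.32, -0.15 and -0.96. In S3 they were -0.53, -0.63, -0.57, -0.72 and -1.68, in S4 -0.97, -0.58, -1.59, -1.23 and -0.50, and in replicates 1, 2, 3 and 5 of S5 0.68, 1.04, -0.13 and -0.76. Replicates 1 and 2 of S5 were the only arrays of S1 to S5 above whole fish, and replicate 5 of S5 lay within the range of S3-S4.

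cyp26a1 averaged 0.21 in S5 and -0.90 in S3-S4, a difference of 1.11 (SE 0.29, 2.16-fold, adjusted p = 0.0322). The Cy5 signal was above background on 4 of 4 S5 arrays and on 1 of 10 S3-S4 arrays, while Cy3 was above on all of them, so the fold rests on a dim signal in S3-S4. The S5 call was lost without replicate 1 of S5 (0.951, adjusted p = 0.119) or replicate 2 of S5 (0.83, adjusted p = 0.212), the 2 high arrays, and without replicate 3 or 4 of S4 (adjusted p = 0.0511 and 0.0527). It was also lost with the authors' log2 values (2.38, adjusted p = 0.322) and, narrowly, with the arrays of large spots alone (1.13, adjusted p = 0.0505). Against S1, where the average was -0.61, S5 was higher by 0.82 (SE 0.32, adjusted p = 0.159), and without replicate 5 of S5 by 1.14 (adjusted p = 0.0384).

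cyp26b1 was below whole fish on all 24 arrays (-2.00 to -0.09, median -1.01), with Cy5 above background on 3 of them, 2 in S5 and 1 in S4. S5 averaged -0.68 and S3-S4 -1.20, and the difference of 0.52 (SE 0.30, adjusted p = 0.442) was not called. With the authors' log2 values it was called, at 1.51 (adjusted p = 0.0431), as was S5 against S1, at 1.68 (adjusted p = 0.0263).

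**Figure D3:**
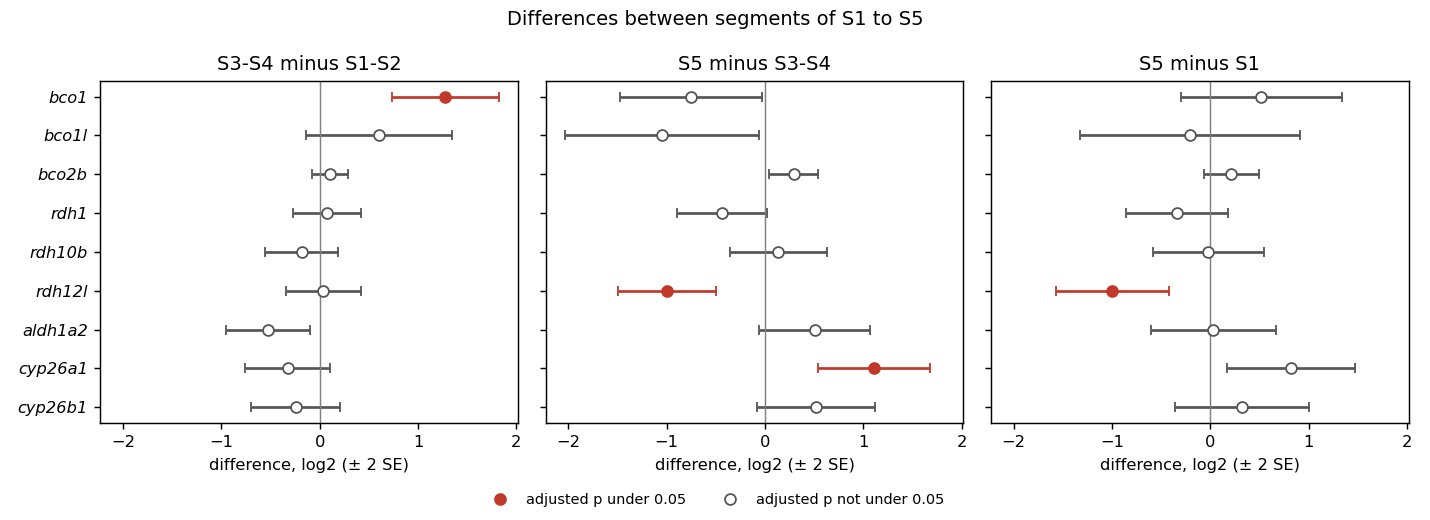
Differences in log2 ratio between segments for the 9 tested spots, with bars of ± 2 SE. Filled red points passed limma's test at an adjusted p below 0.05. bco1 stands out in S3-S4 minus S1-S2 (1.28), rdh12l in S5 minus S3-S4 and S5 minus S1 (-0.996 and -0.995) and cyp26a1 in S5 minus S3-S4 (1.11).

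Over the 5 segments together, 2 of the 9 tested spots passed the F test, rdh12l (adjusted p = 0.0292) and bco1 (adjusted p = 0.0349), against 6.18% of all 19479 tested spots. Both lie near the threshold. The bco1 call was lost without any 1 of 10 of the 24 arrays (replicate 2 of S1, replicates 1, 3 and 4 of S2, 5 of S3, 1, 2, 3 and 4 of S4 and 2 of S5), with adjusted p up to 0.0787. The rdh12l call was lost without any 1 of 5 (replicates 1, 3 and 5 of S3 and 2 and 3 of S5), up to 0.0974. The rdh12l call was also lost with scaling between arrays (0.0774), the authors' log2 values (0.166), the replicate block (0.054), the spot area block (0.0596) and large spots only (0.0744), and the bco1 call with median centring (0.0876), scaling (0.362), the authors' log2 values (0.161), pixel means (0.0571), the spot area block (0.0554) and large spots only (0.054). Without replicate 5 of S5, cyp26a1 passed as well (adjusted p = 0.0345). By a plain one-way analysis of variance with a Bonferroni-corrected p under 0.1, the kind of test the methods name for all 7 segments but run here on S1 to S5 and on the values normalized by loess, 0 of the 9 spots passed, against 154 of all spots. At an unadjusted p under 0.05, 4 of the 9 passed it (rdh12l, bco1, bco2b and cyp26a1), beside 19.1% of all spots. The S5 against S3-S4 and S5 against S1 comparisons share the S5 arrays, so the rdh12l calls in both are not separate evidence.

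**Figure D4:**
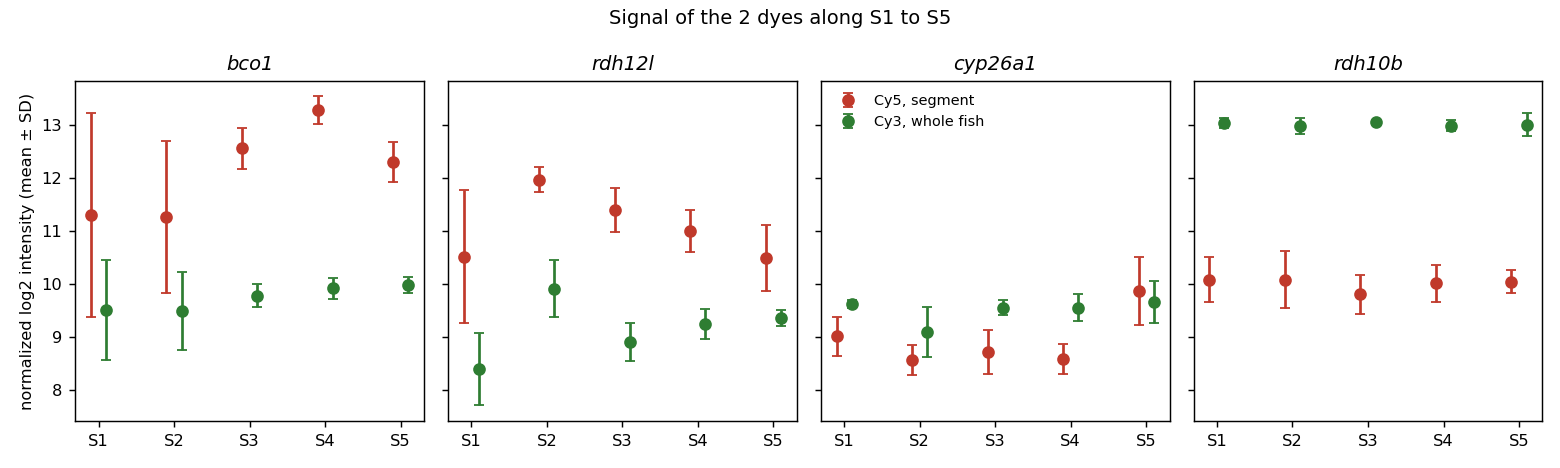
Normalized log2 intensity of the 2 dyes along S1 to S5 for 4 spots, as mean ± SD over 5 arrays a segment (4 in S5). Cy5 is the segment RNA and Cy3 the whole-fish RNA. Cy5 of bco1 is highest in S4 (13.3), Cy5 of cyp26a1 lies below Cy3 in S1 to S4 and above it by less than the SD in S5, and rdh10b has its Cy3 about 3 steps above its Cy5 throughout.

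By their course over the 24 arrays, the named genes most like bco1 were atp2b1a, a calcium pump of the plasma membrane (Pearson r = 0.756), heg1 (0.734) and anpepb.1, an aminopeptidase of the brush border (0.725), among 10137 spots with a name. The heg1 means stayed near whole fish, from -0.114 in S2 to 0.15 in S4, a far smaller change than that of bco1. anpepb.1 shared the higher S3 and S4 means (2.75 and 2.97, against 1.71 and 1.79 in S1 and S2). It was higher still in S5 (3.2). Those most like rdh12l were pmpca (0.781), cdo1, the cysteine dioxygenase (0.773), and dgat2, which makes triacylglycerol (0.771). All 3 had their lowest mean in S5, at 0.08, 1.70 and 1.08. These correlations describe arrays that share their segment composition and the same whole-fish RNA, and they carry no test.

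A wider list of 67 genes of retinoid handling, from uptake to nuclear receptors, had spots for 40 of them, 47 spots in all, of which 43 were tested in S1 to S5. The spots passing the F test were 4 of 43 (scarb1, sdr16c5b, rbp4 and rbp4l), beside 6.18% of all spots. Of the 43, 1 was called higher and 0 lower in S3-S4 against S1-S2, 0 higher and 3 lower in S5 against S3-S4, and 0 higher and 1 lower in S5 against S1, beside 1.97%, 3.06% and 5.77% of all spots called. The median difference of the 43 spots was 0.03, -0.22 and -0.12 in the 3 comparisons, beside 0.000376, -0.04 and -0.05 over all tested spots.

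The receptor gene scarb1, whose product takes up carotenoids, was higher in the mid-intestine than on either side of it. Its ratio was -0.95 to 0.73 on the 10 S3-S4 arrays (median -0.31) and -1.79 to -1.14 on the 10 S1-S2 arrays (median -1.47), with no overlap. The difference was 1.24 (adjusted p = 6e-05), stayed called in all 12 other settings and without any single array, and was 1.04 within the arrays of large spots. Among those settings, Aquantile normalization equalizes average intensity and leaves log2 ratios unchanged, so its outcome could not differ. In S5 the 4 arrays lay between -1.30 and -1.08, below all S3-S4 arrays (difference -0.95, adjusted p = 0.00883), although this call was lost with median centring (-0.871, adjusted p = 0.12), scaling between arrays (-0.787, 0.19) and the authors' log2 values (-1.03, 0.101). The share of all spots without overlap was not counted in either comparison. Over S1 to S5 scarb1 stood at -0.93 against whole fish (SE 0.07).

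sdr16c5b, related to the epidermal retinol dehydrogenase of mammals, had 2 spots, at 2.95 and 3.27 against whole fish. Its spot that passed the F test was between 1.43 and 2.88 on the S5 arrays and between 2.61 and 3.45 on the S3-S4 arrays (difference -0.86, adjusted p = 0.0113), and the other spot gave -0.87 (adjusted p = 0.0389). Without replicate 3 of S5 the first difference was -0.586 (adjusted p = 0.0779), and it was not called with median centring (-0.805, adjusted p = 0.132), scaling between arrays (0.488) or all 30 arrays (0.0501). Its F test (adjusted p = 0.0456) stayed called only without replicate 5 of S2, 2 of S3, 3 or 5 of S4 or 1 of S5, and was lost without any other of the 24 arrays, with adjusted p up to 0.218. rbp4, the serum carrier of retinol made mostly in liver, was highest in S1 (-0.43 ± 0.70) and lowest in S3 (-2.13 ± 0.47) on the spot that passed, whereas its other spot (adjusted p of the F test 0.0666) had its lowest mean in S2. The hepatocyte list was likewise highest in S1 (-0.15 to 0.51) and lowest in S3 (-1.89 to -1.11), and its part in the rbp4 course was not tested. rbp4l, a related gene with Cy5 above background on 6 of 24 arrays, passed the F test narrowly (adjusted p = 0.0458), with means from S1 to S5 of 0.47, -0.76, 0.25, -0.04 and -0.28. That call was kept only without replicate 5 of S2, 1, 3 or 5 of S4 or 1 or 3 of S5, and was lost without any 1 of the other 18 arrays, with adjusted p up to 0.123.

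**Figure D5:**
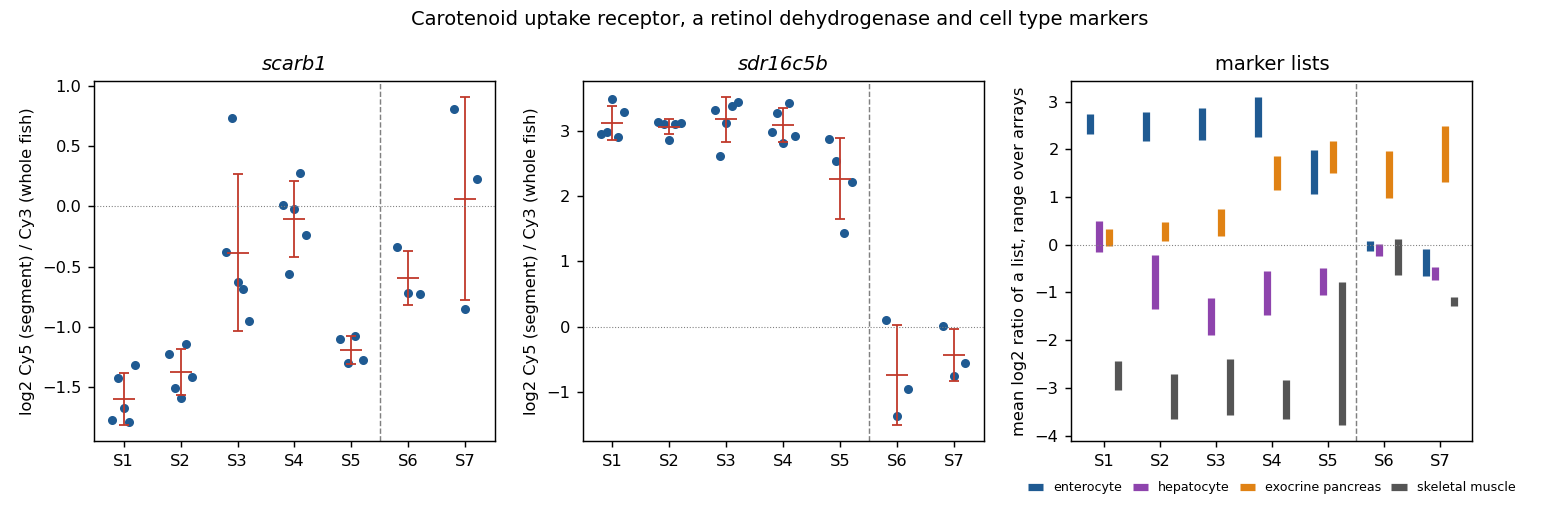
Log2 Cy5/Cy3 by segment for scarb1 and sdr16c5b (points are arrays, bars mean ± SD) and, at right, the average ratio of 4 marker lists, each bar spanning the lowest to the highest array of a segment. The S3 and S4 arrays of scarb1 lie above all S1 and S2 arrays, and the share of all spots doing so was not counted. sdr16c5b is lower in S5. The average of the enterocyte list is lower in S5 and near 0 in S6 and S7, and that of the exocrine pancreas list is higher from S4 on.

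Against whole fish, 27 of the 43 spots were called higher in S1 to S5 and 12 lower, in a comparison that called 43.9% of all spots higher and 42.4% lower, with a median of 0.25 beside 0.02 over all tested spots, and 12 lay at least 1 step above and 4 at least 1 step below. Beside sdr16c5b, those above were adh8b, an alcohol dehydrogenase (2.59), cd36, a scavenger receptor (2.30, with Cy5 saturated on 21 of 24 arrays), both spots of aldh8a1 (2.02 and 1.97), dhrs9, a retinol dehydrogenase (1.85), dhrs4 (1.55), dgat1b, which esterifies retinol and diacylglycerol (1.44, with Cy3 above background on 5 of 24 arrays), the retinoid X receptor gene rxrgb (1.28, Cy3 above on 10), dhrs3b, a retinal reductase (1.18, Cy3 above on 11), and rbp2a (1.00, saturated as described). Values with a saturated or dim dye are no exact levels. Those below were 1 spot each of rxrba (-5.23), rbp4 (-1.28) and adh8a (-1.06), and crabp2a, which binds retinoic acid (-1.07, with Cy5 above background on 4 of 24 arrays). This rxrba spot had Cy5 above background on 3 of 24 arrays and Cy3 saturated on 18, so its value is no exact level. The other spots of rxrba (0.33), rbp4 (0.25) and adh8a (0.93) had the opposite sign, so no direction is given for these 3 genes.

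In S6 and S7 none of the carotenoid and retinoid genes was called in any comparison. The tests there covered 9 of the 11 spots, without bco1l and cyp26a1, against 0.282% of all 17741 tested spots called in S6 against whole fish (0.13% higher and 0.152% lower), 2.88% in S7 against whole fish (1.65% higher and 1.23% lower) and 0.0169% in S7 against S6 (0 spots higher). At an unadjusted p under 0.05, 2 of 9 spots passed in S6 (rdh12l and cyp26b1), 2 in S7 (rdh10b and aldh1a2) and 1 in S7 against S6 (rdh12l), beside 11.1%, 16.2% and 6.29% of all tested spots in these comparisons. Each segment had 3 arrays. The number of spots called in S7 rested on single arrays, at 81 without replicate 5 and 190 without replicate 3 of S7 (511 with all arrays), and that in S6 ran from 9 without replicate 3 to 280 without replicate 2 of S6 (50 with all arrays), where fewer spots were tested (11434). Most ratios lay close to whole fish, but the segment signals were often dim. Cy5 was above background on 3 of the 6 arrays for bco1, 2 for rdh1 and 3 for rdh10b, so their ratios are no exact levels. bco1 was at -0.49, -0.54 and 0.22 in replicates 3, 4 and 5 of S7 and at -0.31, -0.08 and -0.56 in replicates 2, 3 and 5 of S6. rdh1 was at -0.01, -0.92 and -1.01 in S7 and at -0.21, -0.66 and -0.48 in S6. rdh10b was at -0.51, -1.15 and -1.02 in S7 and at -0.40, -0.58 and -0.18 in S6. These arrays lay outside the S1 to S5 ranges of rdh1 and rdh10b, and the share of all spots doing so was not counted. Replicate 5 of S7 was the only one inside the range of bco1, above the dim replicate 1 of S1. No test was made across the 2 sets of arrays, whose Cy3 signals hardly correlated, and these ranges are no measure of a segment difference. The Cy3 median of rdh10b, for example, was 8181 on the S1 to S5 arrays and 991.5 on the S6 and S7 arrays. Whether the 2 sets share a spot layout and reference was not tested.

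bco1l was above background in Cy5 on 0 of the 6 arrays of S7 and S6, so its ratios there (-0.94 to 0.86) are not a level. rdh12l was at -0.62, -0.01 and -1.18 in S7 and at 0.75, 0.87 and 0.60 in S6. The difference was not called (-1.34, SE 0.47, adjusted p = 0.774, unadjusted p = 0.00696 by limma). Its arrays did not overlap between the segments, nor did those of the dim bco1l spot, and the share of all spots without overlap was not counted. Cy5 of rdh12l was above background on 0 of 3 S7 arrays. In a fit of all 30 arrays, whose spread comes mostly from S1 to S5, this difference was called (adjusted p = 0.0174), as were rdh12l in S6 (0.74, adjusted p = 0.0363) and rdh1 and rdh10b in S7 (-0.645, adjusted p = 0.0405, and -0.892, adjusted p = 0.00612).

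cyp26b1 was above background in Cy5 on all 6 arrays, with ratios of 0.44, 0.07 and -0.42 in S7 and of 1.16, 1.34 and -0.04 in S6. aldh1a2 was at 0.01, -0.92 and -1.25 in S7 and at -0.19, -0.79 and -0.66 in S6, with Cy3 above background on all 6 arrays. bco2b was between -0.45 and 0.57, rbp2b between -1.14 and 0.44, the bcdo2 spot between -1.35 and 0.80 and cyp26a1 between -0.66 and 0.63. Of the wider list, 38 spots were tested and 2 were called in S7, cd36 higher (1.93, adjusted p = 0.000413) and 1 spot of rbp4 lower than in whole fish (-1.56, adjusted p = 0.00749), and 0 in S6 or in S7 against S6. The rbp4 value rests on Cy5 signals above background on 0 of 3 S7 arrays and was not called without replicate 3 (adjusted p = 0.0809) or 5 (0.23) of S7. Skeletal muscle markers, at -3.77 to -0.78 in S1 to S5, were at -0.63 to 0.13 in S6 and -1.28 to -1.10 in S7. Exocrine pancreas markers were at 1.32 to 2.50 in S7 and 0.98 to 1.97 in S6. Their part in these values was not tested.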

How the data were processed

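The 30 arrays of the intestinal segments were each read from the authors' scanner output. The intensity values deposited by the authors are unnormalized readings of spots and their local background in both dyes. The log2 values deposited by the authors are the log2 of the ratio of mean intensities after multiplication by 1 factor for each array, from 0.913 to 1.35, which fitted at least 89.4% of spots within 1%. The methods name LOWESS normalization, whereas a constant factor describes these values. The value table holds the same numbers, with column medians from -0.51 to 0.03. The methods give aminoallyl labelling and the labels direct labelling with dye nucleotides, and the oligonucleotides were designed from 3' untranslated regions. Their sequences are not used here.

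From the median intensities the background was corrected by normexp (offset 50) and ratios were normalized by loess within each array in limma 3.58.1 under R 4.3.3, with 245 control spots at weight 0 and then left out. Files were read with the R package data.table, version 1.17.8. Testing required a signal over the local background by 2 SD, in Cy5 or Cy3, on 3 or more arrays of some segment, and 2 or more values in every segment. limma's linear model with moderated statistics was fitted on the 24 arrays of S1 to S5 (19479 spots) and on the 6 of S6 and S7 (17741 spots), with Benjamini-Hochberg adjustment over all tested spots and a threshold of 0.05. The fit was tested on simulated data. Of the symbols, 3568 were current in GRCz12tu and 8022 were updated through synonyms, while 11508 spots carry none. All 10 members were named, wider-list genes where they passed the F test or lay at least 1 step from whole fish, and the 3 named genes with the highest r for members passing the F test. The members, lists and tests were chosen with earlier results of these data known.

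Replicates of a segment are separate pools of 10 fish, so p-values measure the spread between pools and arrays together. As each intestine was cut into segments, pools of different segments may share fish, and the main fit does not model such pairing. The number of arrays limits the precision. Alternatives covered background, normalization, the authors' values, the filter, the replicate number as a block, all 30 arrays in 1 fit, the methods' analysis of variance and leaving out each array. Pixel means, undetected spots set missing, spot area as a block and arrays of large spots alone were added after seeing the data.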

Additional observations from a re-analysis of the deposited data

Results flagged for a closer look

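In 55 groups of 4 or 5 arrays (11 spots in S1 to S5), 4 had an array set apart from the others by more than Dixon's 95% limit, where chance gives about 1 in 20. bco1l stood at 4.92 in replicate 2 of S3, with the next array at 3.86 and the Cy5 signal at 59653. rdh1 stood at 1.3 in replicate 3 of S5, with the next array at 1.86, and rdh12l at 1.1 in replicate 2 of S1, with the next at 2.14 and neither dye above background. cyp26a1 stood at -1.68 in replicate 5 of S3, with the next at -0.72 and Cy5 not above background. The cause was not tested in these 4 cases.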

How the results depend on the processing

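The numbers given here are of called member spots, with the main count in brackets. The main setting tested 9 spots, the settings with no filter and with all 30 arrays 11, and the fits without an array of S6 or S7 tested 7. For the F test over S1 to S5 (2), the count was 4 without background correction, 1 with median centring, 0 with scaling between arrays and 0 with the authors' log2 values. It was 1 with the replicate block, 0 by the methods' analysis of variance with Bonferroni correction, 1 with pixel means and 0 with the spot area block. Large spots alone leave 1 S2 array, whose bco1l spot lay below its background in both dyes, so no F test count is given for them. For S3-S4 against S1-S2 (1), it was 0 with median centring, with scaling and with the authors' log2 values. For S5 against S3-S4 (2, rdh12l and cyp26a1), it was 1 with each of these 3, cyp26a1 with the first 2 and cyp26b1 with the authors' values, and 3 without background correction, where bco1l was added. With large spots only the 2 were bco1l and rdh12l. For S5 against S1 (1), it was 2 without background correction, with the authors' log2 values, with no filter on dim spots (rdh12l and the bcdo2 spot) and with undetected spots missing, and 0 with median centring, with scaling, with the replicate block, with all 30 arrays, with the spot area block and with large spots only. For S6 against whole fish (0) it was 1 with all 30 arrays, for S7 against whole fish (0) 1 with the authors' log2 values and 2 with all 30 arrays, and for S7 against S6 (0) 1 with all 30 arrays. Over single arrays left out, the counts ran from 0 to 3 for the F test, 1 to 1 for S3-S4 against S1-S2, 0 to 2 for S5 against S3-S4, 0 to 2 for S5 against S1, 9 to 9 for S1-S5 against whole fish and 0 to 0 for S6, S7 and S7 against S6. No called difference changed sign in any setting. The cause of these changes was not tested.

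Over all spots, the F test called 617 with all 30 arrays and 764 with large spots only (1204 in the main setting). S3-S4 against S1-S2 called 195 and 119 (383), S5 against S3-S4 314 with all 30 arrays, 328 with scaling and 349 with the authors' values (597), and S5 against S1 545 with all 30 arrays and 683 with median centring (1124). For S6 the counts were 79 with median centring, 25 with scaling, 300 with the authors' values, 7 with no filter, 94 with the replicate block and 3767 with all 30 arrays (50), for S7 1207, 127, 250 and 4950 with the last 4 of these (511), and for S7 against S6 11 without background correction, 19 with the authors' values, 0 with no filter, 5 with the replicate block and 1748 with all 30 arrays (3). Without a single array, the counts moved by over 1.5 times for the F test without replicate 5 of S2 (1894), for S3-S4 against S1-S2 without it (600) or without replicate 5 of S4 (577), for S5 against S3-S4 and S5 against S1 without replicate 2 of S5 (346 and 720), for S6 without replicate 2, 3 or 5 of S6 (280, 9 and 24) or 4 of S7 (76), and for S7 without replicate 5 or 3 of S7 (81 and 190) or 2 of S6 (822). S7 against S6 ran from 0 to 5. Median centring gave 58 of 306 higher calls in S3-S4 against S1-S2 (main 204 of 383), 405 of 484 in S5 against S3-S4 (325 of 597) and 509 of 683 in S5 against S1 (470 of 1124). It moved the median of all spots in S5 against S1 to 0.0549, against -0.0462 in the main setting, and the authors' values moved that of S1-S5, S6 and S7 against whole fish to -0.127, -0.25 and -0.36, against 0.017, -0.0395 and -0.0385.

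Replicate numbers are shared between segments, but no source says that they mark shared fish or days. Of 46 pairs of same-numbered arrays, 18 had deviations correlated above 0.1 (mean 0.06, from -0.67 to 0.54). The mean over pairs of different numbers was -0.0152, and 10 of 24 arrays correlated best with their own number. With the replicate block 1219 spots passed the F test, against 1204 without it, bco1 in S3-S4 against S1-S2 stayed called (1.28, adjusted p = 0.0154), and rdh12l lost its calls in the F test (0.054) and in S5 against S1 (-1.01, 0.0558). Keeping flagged spots and blocking on slide or scan were not run, since the files used here hold neither flags nor slide or scan labels. Signal not above background by 2 SD limits rbp2b, the bcdo2 spot, aldh1a2, bco1l and both cyp26 genes. Their dyes were both above background on at most 8 of the 24 arrays of S1 to S5. For aldh1a2 the Cy3 background was uneven (median SD 2524.5) beside a median signal of 916.5.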
